A study of Mus musculus with 2 samples.

Results

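Retained-intron transcripts are RNAs that the GENCODE M21 annotation lists beside the coding transcripts of a gene. As a rule they keep, in an exon, sequence spliced out of the coding form. In total RNA of the adrenal gland 4420 of them were chosen by a mean of 50 estimated counts or more over both libraries of the index-based tables, out of 21848 annotated (20.2%) and out of 141767 annotated transcripts in all. They belong to 3105 genes. Of these genes 3018, with 4304 of the transcripts, also had coding transcripts with a summed mean of 50 estimated counts or more and could be compared. The other 116 transcripts, in 87 genes, were left out of that comparison. Because the minimum used the counts of both animals, the levels themselves are a description. At the edge of the minimum, Sbno2-206, Ube2e1-203 and Naa30-202 lay just below it, with 36.2 and 63.7, 34.2 and 65.8, and 44.1 and 55.9 estimated counts in replicates 1 and 2. Just above it lay, among others, Gm9989-201 with 51 and 49 and Rpia-203 with 45.5 and 54.6.

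The tissue came from 2 adult female B6CASTF1/J mice aged 8 to 10 months, F1 hybrids that carry B6 and CAST alleles, with no treatment named. The labels number the animals 1 (replicate 1) and 3 (replicate 2), with the same donor code but separate biosamples, so the spread between replicates may be in part technical. They form 1 group, so no test between conditions exists, genes are not replicates of an animal, and no p-value is given for any value below. Libraries were made from 300 ng of RNA with ERCC spike-ins, and a linked protocol names a directional kit. Depth was 41914503 and 35513314 estimated counts in the index-based tables of replicates 1 and 2, and 40453706 and 34319786 in the alignment-based tables. All 7 cortex markers and all 6 medulla markers were above 1 TPM in both animals, and 4 of 6 kidney markers (Umod, Slc12a1, Slc34a1 and Nphs1) were listed at 0 in both.

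Intron retention leaves an intron in an otherwise processed RNA. Such RNAs are often held in the nucleus, and those that reach the cytoplasm often meet a stop codon inside the intron and are then open to nonsense-mediated decay. Genes of splicing factors are known for regulated retention, and some kinase and metabolic genes keep a pool of nuclear RNA with a detained intron that can be spliced later. In total RNA, which includes nuclear RNA, an annotated retained-intron transcript may also collect reads of unspliced precursor RNA, and the counts do not separate these forms.

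Introns up to 250 bases that lie between coding exons of the genes with the largest retained-intron share are printed here 5′ to 3′, to show what the coding form lacks. Capitals mark the first stop codon met when translation runs into the intron in the frame of the coding transcript. Sequences are those of the GENCODE M21 reference transcripts, not of the CAST allele that both animals also carry.
Rps20 intron 1 in Rps20-201 (mm10 chr4:3835292-3835483, minus strand): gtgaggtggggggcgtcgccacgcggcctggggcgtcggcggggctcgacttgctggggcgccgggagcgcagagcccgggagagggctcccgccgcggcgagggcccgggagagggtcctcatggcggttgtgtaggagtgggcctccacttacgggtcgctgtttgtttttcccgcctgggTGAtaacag
Rps20 intron 2 in Rps20-202 (mm10 chr4:3835010-3835191, minus strand): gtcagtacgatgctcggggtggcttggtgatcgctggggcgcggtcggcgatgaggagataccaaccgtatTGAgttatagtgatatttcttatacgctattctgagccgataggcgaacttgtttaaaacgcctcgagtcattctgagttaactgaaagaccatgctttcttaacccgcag
Taf10 intron 3 in Taf10-201 (mm10 chr7:105743341-105743427, minus strand): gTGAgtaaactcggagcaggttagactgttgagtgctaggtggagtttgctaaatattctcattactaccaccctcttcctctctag
Sugt1 intron 1 in Sugt1-205 (mm10 chr14:79587867-79587953, plus strand): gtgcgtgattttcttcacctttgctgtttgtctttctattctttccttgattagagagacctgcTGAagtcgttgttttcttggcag
Rps16 intron 3 in Rps16-202 (mm10 chr7:28352274-28352362, plus strand): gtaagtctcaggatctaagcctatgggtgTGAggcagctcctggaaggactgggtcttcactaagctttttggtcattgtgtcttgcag
Prelid1 intron 3 in Prelid1-202 (mm10 chr13:55324445-55324526, plus strand): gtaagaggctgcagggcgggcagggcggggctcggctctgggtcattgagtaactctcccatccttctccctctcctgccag
The introns of Rps20 differ in base composition, with 71.9% G and C in the first and 48.9% in the second. In Taf10 the stop codon starts at base 2 of the intron, in Rps16 at base 30, in Sugt1 at base 65, and in the first intron of Rps20 at base 184 of 192. The Prelid1 intron holds no stop codon in that frame, and its 82 bases are not a multiple of 3. The printed introns do not account for the whole share of their genes. In Rps16 most of the retained-intron RNA is on Rps16-203, which holds no whole intron. In Taf10 only 1 of 3 retained-intron transcripts, Taf10-201, holds a whole intron, and the strongest is Taf10-202.

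A further 3 introns, chosen after their values had been seen, belong to genes described below for steroid synthesis and splicing.
Cyp21a1 intron 8 in Cyp21a1-203 (mm10 chr17:34802237-34802304, minus strand): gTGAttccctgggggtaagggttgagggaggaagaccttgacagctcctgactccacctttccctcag
Snrnp70 intron 3 in Snrnp70-208 (mm10 chr7:45392134-45392262, minus strand): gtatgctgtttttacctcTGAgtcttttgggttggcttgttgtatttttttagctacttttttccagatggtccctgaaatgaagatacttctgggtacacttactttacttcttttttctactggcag
Clk1 intron 6 in Clk1-204 (mm10 chr1:58417180-58417266, minus strand): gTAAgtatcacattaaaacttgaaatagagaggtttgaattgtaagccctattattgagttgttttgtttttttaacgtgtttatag
In Cyp21a1 and Clk1 the stop codon starts at base 2, directly after the splice junction, and in Snrnp70 at base 19. The Clk1 intron has the lowest G and C content of these 3 at 27.6%, and the Cyp21a1 intron the highest at 57.4%.

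Over all members, 1907 transcripts (43.1%) held at least 1 whole intron of a coding transcript of their gene inside an exon. Of these, 1100 held 1 such intron and 807 held several, up to 19. Another 2498 had bases outside the coding exons of their gene without holding a whole intron. The other 15 had no base outside coding exons, as had 3 of those with a whole intron. The 2498 include 60 members of genes without a coding transcript, in which every base counts as outside. The 3353 distinct introns held whole lay in 1558 genes and had a median length of 405 bases (quartiles 156 and 972). The other 46296 introns of coding transcripts of genes with members had a median of 1333 bases (quartiles 445 and 3368). Introns under 150 bases made up 23.9% of those held and 11.0% of the others. The bases at the ends were GT and AG in 3281 held introns (97.9%), GC and AG in 49, and AT and AC in 4. The median G and C content was 50.4%. First introns made up 14.3% of those held and last introns 10.1%. Of 3015 that lie between coding exons, 2763 (91.6%) met an in-frame stop codon, at a median position of base 39, and 252 did not. In 70 of the 252 the length was a multiple of 3, so that the reading frame runs through the intron. The held introns were thus shorter than the others, and the parts of the annotation and of the count minimum in this difference were not tested.

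**Figure D1:**
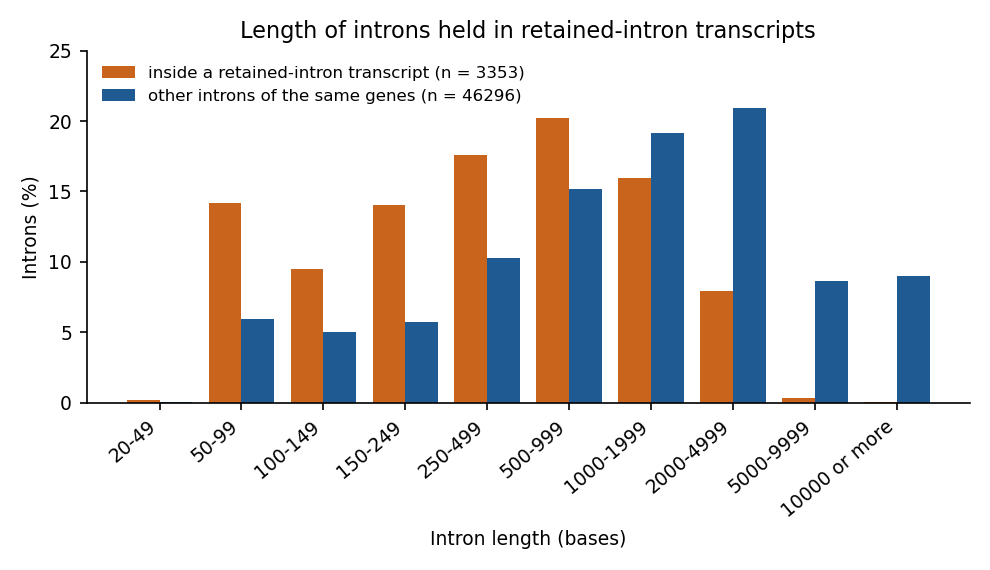
Percent of introns (y axis) in classes of length in bases (x axis), for 3353 introns held whole inside a retained-intron transcript (orange) and 46296 other introns of coding transcripts of genes with such transcripts (blue). Bars of held introns are taller in every class below 1000 bases and shorter in every class above it.

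The members held 821662 estimated counts in replicate 1, 1.96% of the library (95% Wilson interval 1.956 to 1.965), and 890997 in replicate 2, 2.51% (2.504 to 2.514). Such intervals cover counting error only. Of all counts on annotated retained-intron transcripts, members held 81.9% and 79.6%. The median member stood at 0.897 and 1.33 tpm (a level per length of RNA, scaled to the same total in each library) in replicates 1 and 2, and 1995 members reached 1 tpm in both animals. In the alignment-based tables the medians were 0.82 and 1.27 TPM, and 57 members were listed at 0 in both libraries.

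The 8 members with the highest mean tpm, of which 7 are described, came from genes of the ribosome, the lysosome, redox defence and mitochondria, among others. None of the 8 holds a whole intron. Rps16-203, from the gene of a small-subunit ribosomal protein, stood at 342 and 353 tpm in replicates 1 and 2. Ctsb-202, from the gene of the lysosomal protease cathepsin B, stood at 303 and 330 tpm, and the alignment-based tables put it at 339 and 372 TPM, 63.6% and 65.2% of the gene. Rps26-202 stood at 272 and 264 tpm and held 94.96% and 92.98% of its gene in the alignment-based tables. These 3 differed little between the animals, and both kinds of table placed them high. Prdx2-205, from a peroxiredoxin gene, stood at 216 and 243 tpm, and Itm2b-202, from a membrane protein gene, at 204 and 189 tpm. Chchd10-202, from a mitochondrial protein gene, stood at 183 and 155 tpm. Tpt1-207 stood at 203 and 209 tpm in the index-based tables but at 2.27 and 1.42 TPM in the alignment-based tables, so its level depended on the kind of table. The bases of these 8 transcripts outside coding exons numbered 68 to 284, of 353 to 935 bases in all, and the rest is shared with coding exons. Ribosomal protein genes also have near-identical pseudogene copies, and the counts of Rps16 and Rps26 are uncertain for that reason.

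The retained-intron share of a gene is the summed tpm of its members as a percent of that sum plus the summed tpm of its coding transcripts. Most genes had a small share. The median over 3018 genes was 10.1% in replicate 1 and 13.3% in replicate 2 (SD 2.24, n = 2), and 7.14% and 9.91% in the alignment-based tables. All 4 shares, from 2 kinds of table and 2 animals, were below 10% in 1108 genes and at or above 50% in 114 genes. The mean share over both animals was 50% or more in 237 genes in the index-based tables and in 174 in the alignment-based tables. The share was lower where coding transcripts were more abundant, from medians of 24.9% and 28.8% in 500 genes with coding sums of 50 to 500 estimated counts to 3.73% and 5.86% in 158 genes with 10000 or more. A low coding sum enters the share as its denominator, so this order is partly built into the measure. Of the 3018 genes, 1889 overlap another annotated gene, and since the use of strand in counting is not known their levels are uncertain. Many of the genes named below are among them, and the overlap is not repeated for each. In 2120 genes there was 1 member and in 898 genes 2 or more, up to 8 in Hnrnpk.

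**Figure D2:**
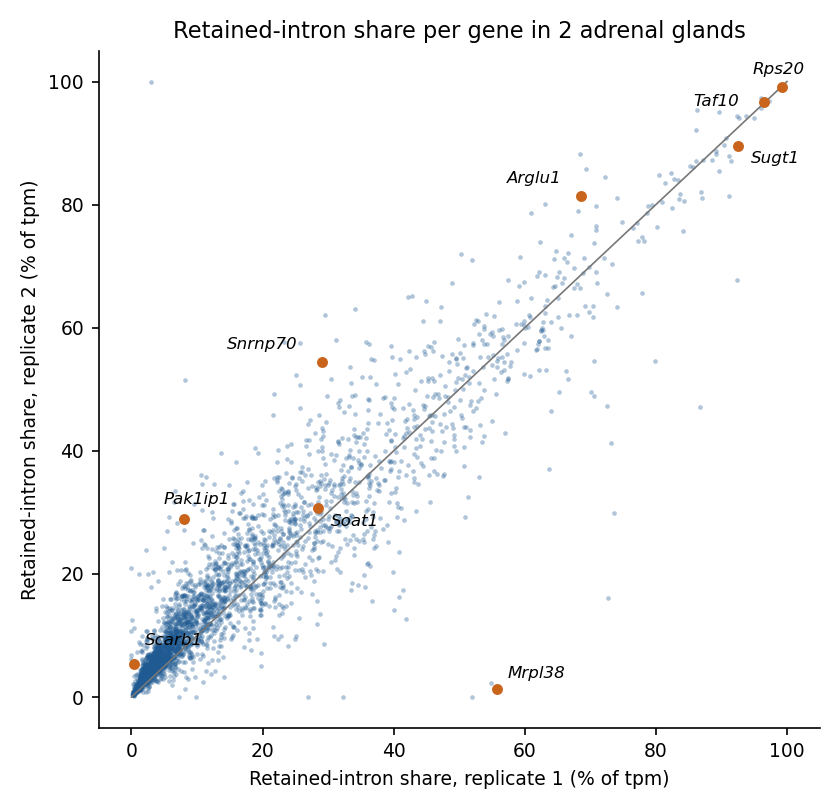
Retained-intron share of 3018 genes, in percent of tpm, in replicate 1 (x axis) and replicate 2 (y axis), 1 point per gene, with the line of equality and 9 genes named in the text in orange. Most points below 60% lie above the line, Rps20 and Taf10 lie on it near 100%, and Mrpl38 lies at 55.8% and 1.35%.

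Among 1004 genes with at least 200 mean estimated counts on each side, the 10 with the largest share that held in both animals and both kinds of table were Rps20, Taf10, Sugt1, Cbr4, Rps16, Tsn, Prelid1, Usp15, C4b and Mtx2. Rps20, from the gene of a small-subunit ribosomal protein (chromosome 4, 3831334 to 3835665), had 311 and 308 tpm on 2 members in replicates 1 and 2, against 2.29 and 2.55 tpm on its coding transcript. Its share was 99.3% and 99.2%, and 98.0% and 98.1% in the alignment-based tables. A member of Rps20, Rps20-202, also holds Gm24016, which is annotated as a snoRNA. Taf10, from the gene of a subunit of the transcription factor TFIID (chromosome 7, 105739393 to 105744361), had 74.9 and 73.0 tpm on 3 members against 2.72 and 2.46 tpm on the coding transcript, a share of 96.5% and 96.7%. Both genes gave nearly the same share in both animals. Taf10 overlaps Ilk, a protein-coding gene on the opposite strand, so its level is uncertain. Sugt1, from the gene of a co-chaperone of HSP90 (chromosome 14, 79587691 to 79635196), had 23.8 and 18.6 tpm on Sugt1-205 against 1.92 and 2.18 tpm of coding RNA, so that the share was 92.5% and 89.5%. The deposited percent of the gene gave Sugt1-205 60.5% and 57.2%, since it also counts transcripts of other types. C4b, the complement component, had 36.4 and 50.2 tpm on C4b-203 against 7.78 and 8.73 tpm, a share of 82.4% and 85.2%. C4b overlaps no other annotated gene, but a related gene, C4a, lies on the same chromosome and also has retained-intron transcripts above the minimum.

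These high shares went with short members beside a long coding transcript. In 8 of the 10 genes only 1 coding transcript is annotated, and in 10 of 10 the strongest member is shorter than the strongest coding transcript, with medians of 714.5 and 4295 bases. The strongest Rps20 member has 582 bases and the coding transcript Rps20-203 has 3706, Taf10-202 has 601 beside 4281 bases of Taf10-203, and Sugt1-205 has 897 beside 7392 bases of Sugt1-201. As a share of estimated counts, which are not divided by length, the Rps20 members held 92.2% in replicate 1 (95% Wilson interval 91.4 to 92.9) and 91.3% in replicate 2 (90.4 to 92.1). By the same measure Taf10 had 66.9% (64.7 to 69.1) and 68.9% (66.5 to 71.2), Sugt1 53.0% (50.5 to 55.5) and 43.7% (40.9 to 46.4), and C4b 31.3% (29.7 to 33.0) and 35.9% (34.3 to 37.6). Over all 237 genes at 50% or more, the strongest member was the shorter one in 199 genes (84.0%), against 62.4% over the 3018 genes, and 92 genes (38.8%) had a single coding transcript, against 20.7%. Whether the length of the annotated coding transcript sets these shares was not tested.

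The remaining genes of the 10 had shares between 81.0% and 98.9% in all tables. Tsn, from the gene of the nucleic acid binding protein translin, had 56.1 and 54.9 tpm on 3 members against 5.75 and 5.56 tpm. Usp15, from a deubiquitinase gene, had 21.7 and 19.9 tpm on 4 members against 3.64 and 3.21 tpm. Prelid1, Mtx2 and Cbr4 encode mitochondrial proteins. Prelid1 overlaps Mxd3 and Rab24, protein-coding genes on the opposite strand. Prelid1-202 stood at 41.04 and 42.1 tpm against 7.13 and 6.74 tpm, the 2 members of Mtx2 at 26.9 and 25.2 tpm against 5.36 and 4.78 tpm, and the 4 members of Cbr4 at 13.1 and 14.7 tpm against 1.60 and 1.88 tpm. Rps16 had a larger share in the alignment-based tables (98.8% and 98.9%) than in the index-based tables (86.2% and 87.0%). Dpm1, from the gene of dolichol-phosphate mannose synthase, was among the 10 largest in the index-based tables alone, with 86.2% and 95.4% there and 64.3% and 70.1% in the alignment-based tables. Its strongest member, Dpm1-208 at 13.1 and 14.6 tpm, has no base outside coding exons. Dpm1-203, which holds a whole intron, stood at 0.68 and 1.00 tpm. Dpm1 overlaps Gm20716, a protein-coding gene on the same strand.

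Replicate 2 held more retained-intron RNA than replicate 1. Members had a median log2 level ratio of 0.50 (replicate 2 over replicate 1, 0.01 tpm added), against 0.03 for coding transcripts and 0.10 for all 31423 transcripts above the minimum. At least 2-fold higher in replicate 2 were 742 members (16.8%), against a background of 8.86% of all transcripts, and at least 2-fold lower were 95 members (2.15%), against 4.69%. The deposited TPM interval of replicate 2 lay wholly above that of replicate 1 for 1219 members (27.6%) against 12.4% of all transcripts, and wholly below it for 41 members (0.928%) against 5.92%. These intervals describe the estimation within 1 library and not the spread between animals. With TMM scaling of the counts, the median of all transcripts moved from 0.10 to -0.08 and that of the members from 0.50 to 0.33. The split of transcripts at least 2-fold apart then changed from 2783 higher and 1474 lower to 2022 higher and 1956 lower over all transcripts, and from 742 and 95 to 464 and 125 over the members.

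The shift compares the members with the coding transcripts of the same gene in the same libraries, so the scaling of a library cancels. It is the log2 ratio of replicate 2 over replicate 1 of the member sum minus that of the coding sum. The median shift over 3018 genes was 0.42 (quartiles 0.02 and 0.80), with 75.9% of genes above 0, and 0.45 in the alignment-based tables, with 77.3% above 0. Both kinds of table gave a positive shift in 2080 genes and a negative one in 474. A shift of 1 or more was seen in 458 genes (15.2%) and one of -1 or less in 75 genes (2.49%). In the alignment-based tables these were 585 genes (19.4%) and 101 genes (3.35%), and 324 and 34 genes passed these limits in both kinds of table. In tpm, the ratio of the coding sums had a median of 0.02 and that of the member sums 0.47. How the shift divides between members and coding transcripts depends on the scaling and is not decided here. With TMM the median of all transcripts was -0.08 and that of the members 0.33, against 0.10 and 0.50 in tpm. The median of the members was thus above 0 with both scalings. Among 158 genes with coding sums of 10000 estimated counts or more, 82.3% had a positive shift, 32 had a shift of 1 or more and 0 had one of -1 or less.

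The other noncoding classes had median shifts nearer to 0, with a larger share of genes at -1 or less. Transcripts typed nonsense-mediated decay had a median shift of 0.11 over 1406 genes, with a shift of 1 or more in 190 genes (13.5%) and of -1 or less in 139 (9.89%). Transcripts typed processed transcript had a median shift of 0.12 over 1322 genes, with 129 genes (9.76%) at 1 or more and 85 (6.43%) at -1 or less. In the 615 genes with members and nonsense-mediated decay transcripts, the members had the higher shift in 397 genes (64.6%), and in 430 genes with processed transcripts in 278 (64.7%). Members that hold a whole intron had a median shift of 0.53 over 1534 genes, with 81.2% above 0. Members without one had 0.35 over 1887 genes, with 72.3% above 0. All annotated retained-intron transcripts together stood at 7.63% of the coding tpm in replicate 1 and 9.27% in replicate 2, and at 6.50% and 8.26% in the alignment-based tables. Nonsense-mediated decay transcripts stood at 3.27% and 3.53%, and processed transcripts at 8.31% and 8.91%.

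Most of the listed long noncoding RNAs that are held in the nucleus were higher in replicate 2. In the gene tables the 9 of 10 listed that were found summed to 4434 TPM in replicate 1 and 7184 TPM in replicate 2, and 7 of 9 were higher there. No share over all genes is given beside this count or that of the markers below. These counts therefore do not show whether either group differs from genes in general. Malat1, which makes up most of these sums, stood at 3826 and 6213 TPM, and Neat1, the scaffold of paraspeckles, at 105 and 210.4 TPM. Tug1, at 33.7 and 31.2 TPM, and Airn, at 2.46 and 2.07 TPM, were the 2 that were not higher. None of the 10 has an annotated retained-intron transcript. Cell type markers also differed between the glands. The 10 adipocyte markers summed to 1607 and 828 TPM, with 1 of 10 higher in replicate 2, the 7 cortex markers to 25839 and 27010 TPM, the 6 medulla markers to 2144 and 1928 TPM, and the 6 capsule and fibroblast markers to 157 and 108 TPM. The 6 liver markers summed to 7.39 and 23.9 TPM and the 6 kidney markers to 0.52 and 0.57 TPM. Of these marker lists, retained-intron transcripts were measured for Fabp4 among adipocyte markers (share 2.16% and 2.11%, shift -0.03), for 3 cortex genes and for Chga. The part of nuclear RNA or of cell type in the higher retained-intron level of replicate 2 was not tested. In bulk tissue, fewer cells of a type and less RNA per cell cannot be told apart.

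**Figure D3:**
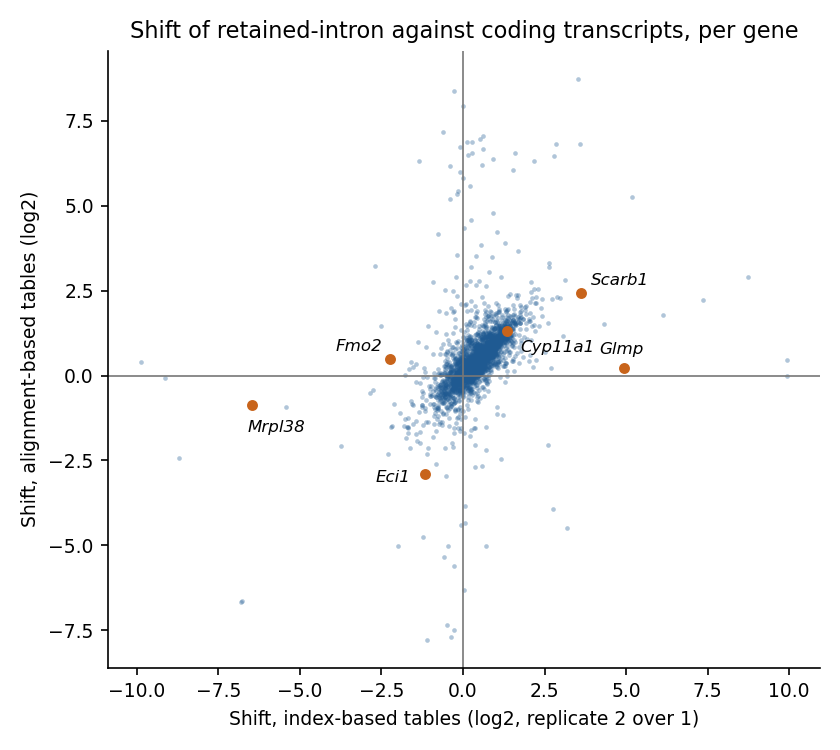
Shift of each of 3018 genes (log2, replicate 2 over replicate 1, members minus coding) in the index-based tables (x axis) and in the alignment-based tables (y axis), 1 point per gene, with 6 genes named in the text in orange. The cloud centres on 0.42 and 0.45, and Scarb1 lies far from 0 on both axes. Glmp and Fmo2 lie far from 0 on the x axis and at 0.21 and 0.48 on the y axis. Mrpl38 lies at -6.48 on the x axis and -0.86 on the y axis.

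Among the 5 largest shifts that held in both kinds of table were those of Scarb1, Msmo1, Jmjd6 and Fgfr1, of which Scarb1 and Msmo1 serve cholesterol supply. Scarb1, from the gene of the receptor for high-density lipoprotein (chromosome 5, 125277087 to 125341094), had 3.13 tpm on 3 members in replicate 1 and 34.5 tpm in replicate 2, while its coding transcripts stood at 679 and 610.0 tpm. Its share was 0.46% and 5.35%, and the shift was 3.61 (counting SE 0.08) and 2.43 in the alignment-based tables. Of these, Scarb1-207 stood at 0.60 and 13.6 tpm and Scarb1-209 at 2.22 and 20.03 tpm, while Scarb1-211, which lies wholly outside coding exons, stood at 0.31 and 0.83 tpm. Gm42633, a gene model of uncertain coding status on the same strand, overlaps Scarb1. All 3 members were therefore higher in replicate 2, by very different ratios.

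Msmo1, from the gene of a sterol demethylase of cholesterol synthesis, had 1.23 and 3.48 tpm on 2 members against 74.2 and 62.6 tpm of coding RNA, a shift of 1.74 (counting SE 0.13) and 1.78. Msmo1 overlaps no other annotated gene. Jmjd6, from the gene of an oxygenase that modifies splicing proteins, had 0.89 and 2.63 tpm against 7.38 and 6.05 tpm, a share of 10.8% and 30.3%. Fgfr1, from the gene of a fibroblast growth factor receptor, had 0.97 and 3.20 tpm against 30.2 and 29.3 tpm, a shift of 1.75 and 1.55. Jmjd6 overlaps Mettl23, a protein-coding gene on the opposite strand, and Gm27401 on the same strand. Fgfr1 overlaps the antisense gene Gm16159. In these 4 genes the coding transcripts were slightly lower in replicate 2 and the members higher in the index-based tables. Counting SEs are those of Poisson counts and leave out the uncertainty of assigning reads to transcripts and the spread between animals.

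Some other large shifts differed between the kinds of table. Glmp, which overlaps Tmem79 on the opposite strand and is the gene of a lysosomal membrane protein, had the largest shift in the index-based tables, 4.93, with 0.29 and 8.51 tpm on its members. The alignment-based tables gave it 0.21. Glmp-203 was near 0 in replicate 1 and at 7.89 tpm in replicate 2 in the former, and at 30.6 and 37.0 TPM in the latter. Mrpl38, from the gene of a mitochondrial ribosomal protein, had the smallest, -6.48 (counting SE 0.37). Its member stood at 14.9 and 0.31 tpm and its coding transcript at 11.8 and 22.8 tpm, whereas the alignment-based tables gave a shift of -0.86 and a share of 5.38% and 3.03%. Mrpl38-205 has 89 bases outside coding exons out of 1403. Fmo2, from a flavin monooxygenase gene, had -2.25 in the index-based tables, and its member was listed at 0 in both alignment-based tables. Zfp26 and Rsrc2 had -1.32 and -1.26 against -0.21 and -0.45. Pak1ip1, with a role in ribosome assembly, and Ahcyl2 had 2.21 and 2.17 in the index-based tables and 1.32 and 1.495 in the alignment-based ones, so both stayed above 1. At both extremes the value of a single gene thus depended on the kind of table.

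Negative shifts in both kinds of table were rarer. The 5 smallest shifts that held in both were those of Eci1, Med10, Dctn6, Mrpl38 and Sphkap. Eci1, from the gene of an isomerase of fatty acid oxidation, had 37.8 and 14.5 tpm on Eci1-207 against 68.5 and 58.2 tpm of coding RNA, a shift of -1.15 (counting SE 0.14) and -2.89. Med10, from the gene of a Mediator subunit, had 11.3 and 6.51 tpm against 19.8 and 24.1 tpm, a shift of -1.08 and -2.14. By estimated counts, not divided by length, its members held 28.4% and 29.4%, so that share was not lower in replicate 2. In Eci1, Dctn6, Mrpl38 and Sphkap the share of counts was lower in replicate 2. Within Med10 the members differed in opposite directions: Med10-202, with 22 bases outside coding exons, stood at 10.7 and 5.22 tpm, while Med10-203, which holds a whole intron, stood at 0.63 and 1.29 tpm. Dctn6, from the gene of a dynactin subunit, had 15.0 and 10.8 tpm against 7.97 and 10.9 tpm, a shift of -0.93 and -1.80. Sphkap, from the gene of an anchoring protein of protein kinase A, had 1.15 and 0.72 tpm against 1.96 and 2.27 tpm, with -0.87 and -0.84 in close accord between tables.

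Genes of splicing regulators held large retained-intron shares and had median shifts near that of all genes. Lists are described by counts and medians beside those of all 3018 genes (share 11.95%, shift 0.42). Of all genes, 75.9% had a shift above 0 (77.3% in the alignment-based tables) and 7.85% a share of 50% or more. The counts of each list below are to be read beside these percents. Of 30 SR proteins and relatives, which bind RNA to guide splicing, 25 were measured, with 61 members. Their median share was 31.3% (26.5% in replicate 1 and 35.1% in replicate 2, 29.6% in the alignment-based tables), 6 had 50% or more, and the median shift was 0.46, with 22 of 25 above 0 in each kind of table. A shift of 1 or more was seen in 3 of 25 in the index-based tables, beside 15.2% of all genes, and one of -1 or less in 1. Rsrp1 had the highest member level, 72.7 and 90.9 tpm against 30.6 and 52.2 tpm of coding RNA, a share of 70.4% and 63.5%. Srrm2, a scaffold of nuclear speckles, had 36.6 and 64.2 tpm against 117 and 127 tpm. Rbm39 had 35.4 and 44.4 tpm on 5 members against 48.7 and 54.0 tpm. Arglu1, chosen after its values had been seen, had the highest share of the list at 68.6% and 81.5%.

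The splicing kinases and other genes with known detained introns had the highest median share of any list. Of 14 listed, 10 were measured, with a median share of 39.5% (47.6% in the alignment-based tables). Their median shift was 0.39, with 7 of 10 above 0, beside 75.9% of all genes. Clk1, a kinase that phosphorylates SR proteins, had 7.07 and 13.005 tpm on 4 members, against 3.33 and 7.95 tpm on its coding transcript, a share of 68.0% and 62.1% and a shift of -0.38. Clk3 had 14.6 and 17.3 tpm against 11.3 and 15.4 tpm, a share of 56.4% and 52.9% and a shift of -0.20. In the alignment-based tables its direction was opposite, with a share of 45.8% and 51.6% and a shift of 0.33. Ogt, which attaches N-acetylglucosamine to proteins, had 18.3 and 26.3 tpm against 23.7 and 33.6 tpm, a share of 43.6% and 44.0%. Mdm4, a regulator of p53, had 8.45 and 12.3 tpm against 7.51 and 8.61 tpm, a share of 52.9% and 58.9%. By estimated counts, not divided by length, the members of Mdm4 held 8.51% and 9.79% and those of Clk1 76.9% and 68.3%. By the same measure those of Clk3 held 42.2% and 42.5% and those of Ogt 30.1% and 30.9%. In the alignment-based tables the share of Clk1 was 72.2% and 58.1%, with a shift of -0.91. The deposited percent of the gene gave the Clk1 members 25.7% and 24.2% and the coding transcript 9.9% and 17.5%. That percent also counts transcripts of other types. Ogt had more of both kinds of RNA in replicate 2.

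The other RNA-processing lists had lower median shares than the SR proteins and splicing kinases. Of 28 hnRNP genes 16 were measured, with a median share of 15.5% (9.07% in the alignment-based tables, beside 8.72% for all genes). Their median shift was 0.68, with 13 of 16 above 0 and 2 at 1 or more, beside 75.9% and 15.2% of all genes. Hnrnpk had 163 and 169 tpm on 8 members against 241 and 256 tpm, a share of 40.3% and 39.8% and a shift of -0.03 in both kinds of table. Pcbp2 had 24.4 and 25.5 tpm against 191 and 190.2 tpm, Hnrnpa2b1 17.4 and 29.2 tpm against 81.1 and 88.6 tpm, and Hnrnpl 10.8 and 19.7 tpm against 82.4 and 89.5 tpm. Of 30 spliceosome core genes 17 were measured, with a median share of 19.4% (14.4% in the alignment-based tables) and a median shift of 0.44. Snrnp70, a protein of the U1 particle that marks 5′ splice sites, had 19.5 and 37.0 tpm on 6 members and 47.3 and 30.8 tpm on coding transcripts. Its share was 29.1% in replicate 1 and 54.5% in replicate 2 (31.3% and 51.1% in the alignment-based tables), a shift of 1.54 (counting SE 0.07) and 1.20, the largest of that list in the index-based tables. Its strongest member, Snrnp70-216, stood at 7.96 and 17.1 tpm. Sart1 members held 13.3% and 15.2% of estimated counts, not divided by length, but had a tpm share of 66.5% and 70.6%. U2af1l4 had 43.7% and 34.7%, but its member was listed at 0 in both alignment-based tables, and Prpf8 had 16.4% and 14.05% against 1.25% and 1.69% there, on a member with 17 bases outside coding exons. Of 17 genes of nonsense-mediated decay and the exon junction complex 5 were measured, with a median share of 12.9% (7.13% in the alignment-based tables) and a median shift of 0.76, with 3 of 5 above 0. Rbm8a, a core protein of that complex, had 21.5 and 17.9 tpm against 6.31 and 6.27 tpm, a share of 77.3% and 74.1%. By estimated counts that share was 30.9% and 27.4%. Smg5 had 1.13 and 1.79 tpm against 8.64 and 7.36 tpm, and Pnn 0.30 and 0.62 tpm against 5.97 and 7.09 tpm. Rnps1 had 0.78 and 0.98 tpm against 3.48 and 11.96 tpm of coding RNA, a shift of -1.44 that was -0.18 in the alignment-based tables.

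**Figure D4:**
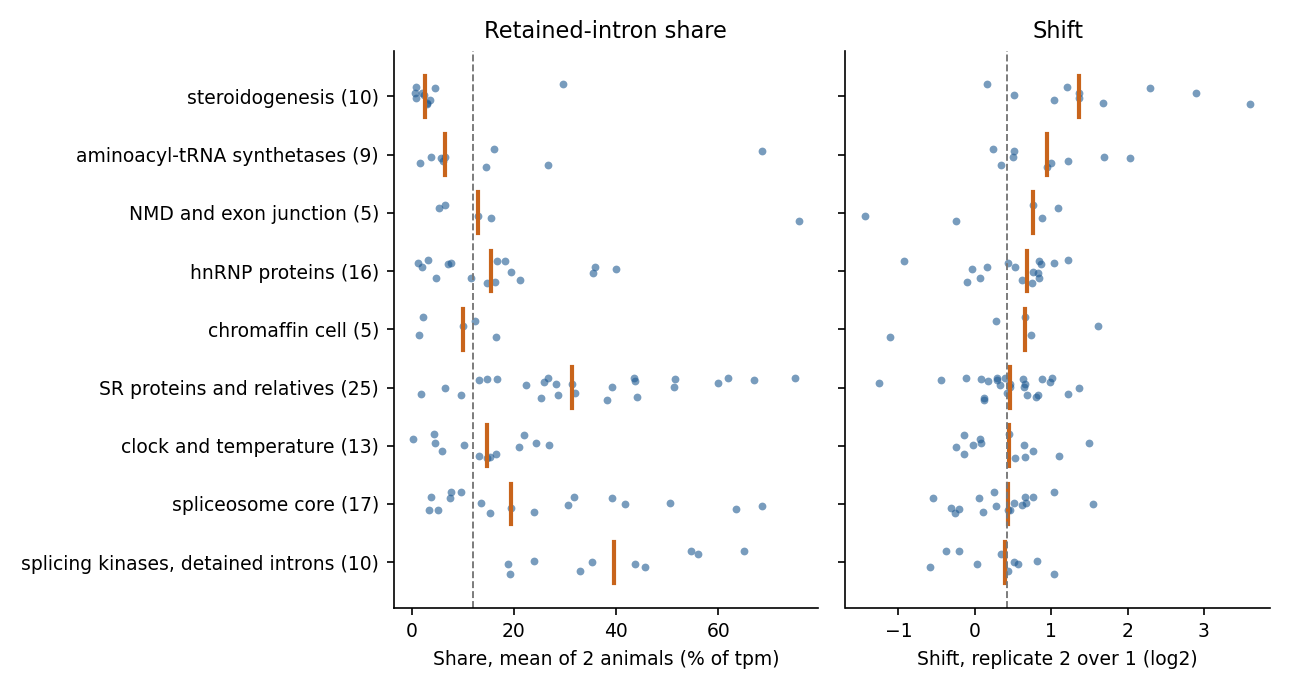
Retained-intron share (left, mean of 2 animals, percent of tpm) and shift (right, log2, replicate 2 over replicate 1) of the measured genes of each list, 1 point per gene, with the number of genes in parentheses, the list median as an orange bar and the median of all 3018 genes as a dashed line. Splicing kinases and SR proteins lie to the right on the left panel (medians 39.5% and 31.3%), and the steroidogenesis genes lie to the left there and to the right on the right panel (medians 2.68% and 1.36).

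Genes of steroid synthesis and cholesterol supply showed the opposite arrangement, with small shares and large shifts. Small shares also went with abundant coding RNA over all genes. The 158 genes with coding sums of 10000 estimated counts or more had median shares of 3.73% and 5.86% and a median shift of 0.48. Of 25 listed, 11 have an annotated retained-intron transcript and 10 were measured, with 17 members. The median share was 2.68% (0.94% in replicate 1 and 3.93% in replicate 2) and the median shift 1.36 (1.29 in the alignment-based tables). The shift was above 0 in 10 of 10 in both kinds of table, beside 75.9% and 77.3% of all genes. It was 1 or more in 8 of 10 in the index-based tables, beside 15.2% of all genes, and in 7 of 10 in the alignment-based tables, beside 19.4%. The list was written with earlier results of these data known, so it is not independent evidence of this direction. Scarb1, described above, is on it.

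The enzymes of the pathway itself had the highest coding levels. Cyp21a1, the steroid 21-hydroxylase (chromosome 17), had 27.0 and 69.9 tpm on Cyp21a1-203 against 5390.2 and 5416 tpm on its coding transcript, a share of 0.50% and 1.27% and a shift of 1.36 (counting SE 0.06) and 1.26. The member differs from coding exons by 68 bases, the short intron 8 printed above, and reads could be shared with the pseudogene copy of this gene, so its level is uncertain. Cyp11a1, which cuts the cholesterol side chain, had 8.28 and 23.6 tpm on Cyp11a1-204 against 2238 and 2472 tpm, a shift of 1.36 (counting SE 0.05) and 1.32. In both genes the member was over 2-fold higher in replicate 2 while the coding RNA differed little. Nr5a1, the transcription factor SF1 that drives steroidogenic genes, had 4.93 and 9.53 tpm against 203 and 191 tpm, a shift of 1.04 and 1.09. Soat1, which esterifies cholesterol for storage, had the largest tpm share of the list, with 120.3 and 154 tpm on 3 members against 302 and 346 tpm, 28.5% and 30.8%, and a shift of 0.16 (counting SE 0.05) and 0.29. Of its members Soat1-205, with 37 bases outside coding exons, stood at 98.9 and 123 tpm in the index-based tables and at 14.5 and 35.2 TPM in the alignment-based tables, while Soat1-203 stood at 14.3 and 21.4 tpm and at 133 and 166 TPM. By estimated counts, not divided by length, its members held 3.64% and 4.16%. The summed tpm share of Soat1 held in both, and its split between members did not.

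Enzymes of cholesterol synthesis had lower coding levels than Cyp21a1 and Cyp11a1. Sqle, squalene epoxidase, had 0.24 and 0.71 tpm against 17.1 and 15.3 tpm, a shift of 1.68 and 3.67. Dhcr7, of the last step, had 2.47 and 5.15 tpm against 499 and 447 tpm, a shift of 1.21 that was 0.47 in the alignment-based tables. Por, a reductase that feeds electrons to cytochromes such as Cyp21a1, had 1.94 and 2.59 tpm against 92.9 and 87.3 tpm, a shift of 0.51 and 0.38. Sqle and Dhcr7 had slightly lower coding RNA in replicate 2.

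**Figure D5:**
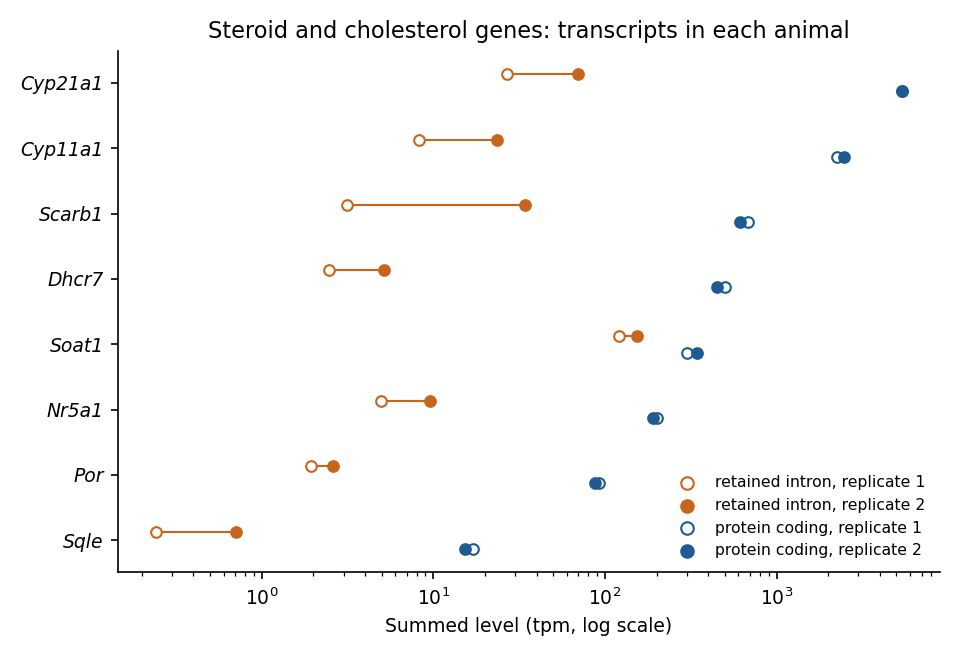
Summed level of retained-intron transcripts (orange) and protein-coding transcripts (blue) of 8 steroid and cholesterol genes on a log axis of tpm, with replicate 1 as open and replicate 2 as filled circles. The orange pairs lie further apart than the blue pairs, most of all in Scarb1 (3.13 and 34.5 tpm), and least in Soat1 (120.3 and 154 tpm).

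In the remaining lists the counts of positive shifts stand beside 75.9% of all genes, and those of 1 or more beside 15.2%. Of 22 aminoacyl-tRNA synthetases and partners, which charge tRNAs, all 22 have an annotated retained-intron transcript and 9 were measured, with a median share of 6.61% (9.84% in the alignment-based tables) and a median shift of 0.94, with 9 of 9 above 0 (8 of 9 in the alignment-based tables) and 3 of 9 at 1 or more. Tars had 12.3 and 16.0 tpm against 6.71 and 6.09 tpm, a share of 64.7% and 72.4% that was 27.4% and 46.6% in the alignment-based tables. By estimated counts, not divided by length, its members held 17.5% and 22.4%. Qars had 7.37 and 10.7 tpm on 4 members against 23.0 and 26.2 tpm. Farsa had 1.68 and 3.35 tpm against 14.3 and 14.8 tpm, a shift of 0.94 in both kinds of table. Yars had 2.94 and 3.71 tpm against 16.7 and 17.8 tpm, and its shift was 0.24 in the index-based and -0.72 in the alignment-based tables.

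Of 25 chromaffin cell genes 5 were measured, with a median share of 10.1% (5.55% in the alignment-based tables) and a median shift of 0.66, with 4 of 5 above 0. Chga, the chromogranin of secretory granules, had 6.52 and 10.5 tpm against 605 and 582 tpm, a share of 1.07% and 1.77% and a shift of 0.74 (counting SE 0.15) and 0.82. Slc18a1 and Slc18a2 load monoamines into vesicles, and their members stood at 0.63 and 1.57 tpm and at 0.58 and 0.66 tpm. Gata2, a transcription factor, had 2.37 and 1.60 tpm against 8.61 and 12.6 tpm, a shift of -1.11 (counting SE 0.28) and -2.32. Gata2 was thus the only one of the 5 with a negative shift, on 1 member with 138 bases outside coding exons.

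Of 26 clock and temperature-responsive genes 13 were measured, with a median share of 14.6% (13.2% in the alignment-based tables) and a median shift of 0.45, with 9 of 13 above 0 and 2 at 1 or more. The chaperone genes had less coding RNA in replicate 2. Hsp90aa1 had 93.3 and 60.2 tpm on members against 300 and 184 tpm, a shift of 0.08. Hsph1 had 25.9 and 10.7 tpm against 87.0 and 39.7 tpm, a shift of -0.14. In both genes 1 member was lower and the other higher in replicate 2. Hsp90aa1-204, with 13 bases outside coding exons, stood at 91.1 and 48.5 tpm and Hsp90aa1-205 at 2.27 and 11.8 tpm. The alignment-based tables gave the Hsp90aa1 members 21.65 and 18.96 TPM in sum, with a shift of 0.47. Hsph1-208 stood at 25.5 and 9.58 tpm, and Hsph1-204, which holds a whole intron, at 0.40 and 1.10 tpm. Hspa8 had 17.7 and 27.2 tpm on members against 695 and 381 tpm, a shift of 1.49 (0.89 in the alignment-based tables), and its member Hspa8-208 also holds the snoRNAs Snord14c, Snord14d and Snord14e. Dbp, a clock-output factor, had 5.68 and 9.39 tpm against 63.7 and 67.4 tpm. Cirbp and Rbm3, cold-inducible RNA-binding proteins, and, like Arglu1, named after their values had been seen, had shares of 17.1% and 15.9% and of 22.5% and 19.7%, with coding RNA at 6.97 and 23.6 tpm and at 13.9 and 19.8 tpm.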

How the data were processed

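Total RNA-seq of adrenal gland from 2 mice was used, with mm10 and GENCODE M21 per the submitters' processing notes; programs, their versions and the use of strand in counting: not given in the sources used here. The index-based tables hold estimated counts and tpm per transcript, deposited by the authors. The alignment-based tables hold TPM, the percent of a gene's expression held by each transcript (IsoPct), and the bounds of an interval of TPM, an expression signal within 1 library, per the file headers. The expected counts of the alignment-based tables, deposited by the authors, served for depth. Members, lists and comparisons were chosen with earlier results of these data known. Named genes were the 10 with the largest shares and the 5 with the largest and smallest shifts among genes with 200 mean counts on each side, in the index-based and in both kinds of table, the 8 most abundant members, and up to 4 genes of each list with the highest member tpm. Genes described beyond these, such as 4 of the steroidogenesis genes, were named after their values had been seen, and some genes that the rule names are not reported here. A constant of 0.01 was added to tpm in log2 ratios. Introns came from the GENCODE M21 annotation and transcript sequences. Python 3.11.15, numpy 2.4.6, pandas 2.3.3 and scipy 1.17.1 were used, and edgeR 4.0.16 in R 4.3.3 gave TMM factors (0.938 and 1.066). The ratio and intron code was tested on simulated data. Alternatives are given in the closing section.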

Additional observations from a re-analysis of the deposited data

How the results depend on the processing

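With 1 group of 2 animals every value is a description, and the cause of each difference between settings was not tested. With a minimum of 20 estimated counts there were 8462 members, with 921 genes at a shift of 1 or more and 165 at -1 or less. With a minimum of 200 there were 928 members, a median share of 20.3%, 129 genes at a share of 50% or more, a median shift of 0.24, 70.3% of shifts above 0, and 67 and 9 genes at the shift limits. The median share was 8.72% from the alignment-based tables, 8.55% from estimated counts (137 genes at 50% or more, 77.6% of shifts above 0) and 16.5% against the strongest coding transcript alone. Without genes that overlap another gene there were 1602 members, 93 genes at 50% or more, 74.0% of shifts above 0, and 175 and 37 genes at the limits. With whole-intron members alone there were 1907 members, a median share of 8.26%, 76 genes at 50% or more, 81.2% of shifts above 0, and 297 and 27 genes at the limits. Without members that have under 100 bases outside coding exons, an alternative chosen after seeing the data, 154 genes were at 50% or more and 78.8% of shifts were above 0. TMM scaling left 464 members at least 2-fold higher. The shift of Fmo2 was 0.48 in the alignment-based tables. Other constants in the log2 ratio, a coding minimum of 200, and leaving out members that hold a small RNA moved none of these summary values beyond the limits used. Of the values of named genes, 36 shares moved from 1 kind of table to the other and 26 did not. Of the shifts 9 moved, 1 was reversed and 52 stayed within the limits used. Shifts within these limits could still differ in sign, as in Clk3 (-0.20 and 0.33) and Yars (0.24 and -0.72). Leaving out each animal gave 3987 to 4843 members, a median share of 11.6% to 13.3% and 237 to 271 genes at 50% or more. No paired analysis was possible because there is 1 group. Depth limits the members near the minimum most, where counting error alone is large.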

Other observations

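Retained-intron transcripts also passed the minimum in genes that have no coding transcript to compare with. There were 60 of them in 42 such genes, with a median log2 level ratio of 0.47 (replicate 2 over replicate 1), and 50 of 60 (83.3%) were higher in replicate 2. Over all 4420 members the median ratio was 0.50 and 80.4% were higher, so these transcripts differed between the animals about as members in general did. Gm49708-201 stood at 55.5 and 77.0 tpm, C4a-206 at 31.5 and 34.9 tpm and Gm43305-201 at 16.6 and 19.7 tpm in replicates 1 and 2. In host genes of small nucleolar RNAs, Gas5-221 stood at 32.3 and 24.8 tpm and Snhg1-213, which holds Snord22, at 16.0 and 19.4 tpm. Snhg1-213 was listed at 0 in both alignment-based tables, and Gas5-221 stood at 0.63 and 0 TPM there. AC121821.1-204, which holds Snora74a, stood at 132 and 124 tpm in the index-based tables and at 0.68 and 0.57 TPM in the alignment-based tables.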
